A study of Homo sapiens with 2 samples.

Results

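The 9 genes described here carry the insulin signal in liver cells and the release of glucose that it restrains: INSR, IRS1, IRS2, PIK3R1, AKT2, FOXO1, PCK1, G6PC1 and SLC2A2. The rule that picks them names the genes and uses no measured value, although earlier results of these data were known when they were chosen, and they are 9 of 19974 protein-coding genes placed on the chromosomes. Each was put at the midpoint of its RefSeq gene record on hg38 and looked up in 2 lists of topologically associating domains, or TADs (segments of a chromosome within which contacts are frequent and across whose edges they are sparse). The lists came from Hi-C, which joins and sequences DNA fragments lying close together in the nucleus. The cells were HepG2, an established line from a human liver cancer. In the PA+OA group they received 120 µM palmitic acid with 240 µM oleic acid, and in the mock group DMSO at 1 part in 1000, each for 48 h. The labels describe a medium with 1% fatty acid-free BSA, and leave unclear whether the mock medium held it too.

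Each group had 1 library, so no difference below has a replicate check, and none was tested. The files hold domain edges and no level of any gene, so the cell type could not be checked by markers. Depth is unknown. Edges fell on multiples of 40 kb (1 bin), and a distance below that is finer than the lists resolve. An edge said to lie within a gene has its coordinate there, which the bin size may not settle. The PA+OA list had 2524 domains and the mock list 2679. Over all protein-coding genes, the domain holding a gene had a median size of 1560 kb in the PA+OA list (quartiles 720 and 3440 kb) and 1480 kb in the mock list (720 and 2840 kb).

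Insulin binds its receptor, a tyrosine kinase, which phosphorylates the adaptor proteins IRS1 and IRS2. These recruit phosphatidylinositol 3-kinase, whose lipid product brings the kinase AKT2 to the membrane. AKT2 phosphorylates FOXO1, a forkhead transcription factor, and keeps it out of the nucleus. In hepatocytes FOXO1 favours transcription of PCK1 and G6PC1, which encode enzymes of glucose production, and SLC2A2 encodes the glucose transporter GLUT2 of the hepatocyte membrane.

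The genes fell into 3 kinds. IRS1, PIK3R1 and PCK1 lay in domains that were the same in both lists to within 1 bin at each edge, with no further boundary inside. AKT2, FOXO1 and IRS2 lay in PA+OA domains that ran over boundaries of the mock list. INSR and SLC2A2 lay in mock domains that were cut by boundaries of the PA+OA list, and around G6PC1 a boundary was present in the one list and absent from the other in both directions. Thus 3 of 9 genes (33.3%, Wilson 95% interval 12.1 to 64.6%, counting error only) had a domain matched in this way, beside 40.5% of all protein-coding genes. Only PCK1 had both edges in identical bins (1 of 9, 11.1%), beside 33.3% of all genes. At least 1 edge was in the same bin for 7 of 9 genes, beside 76.1% of all genes, and the exceptions were FOXO1 and G6PC1. The lower edge was in the same bin for 5 genes, beside 55.2% of all genes, and the upper edge for 3, beside 54.3%. The PA+OA domain was longer than the mock domain for 4 genes, beside 36.2% of the 19602 genes placed in both lists, and shorter for 4, beside 29.3%. A PA+OA domain shorter by at least 1.5 times was found for INSR alone (1 of 9), beside 16.0% of genes in both lists. With 9 genes these shares are coarse, and their Wilson intervals hold the values over all genes.

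**Figure D1:**
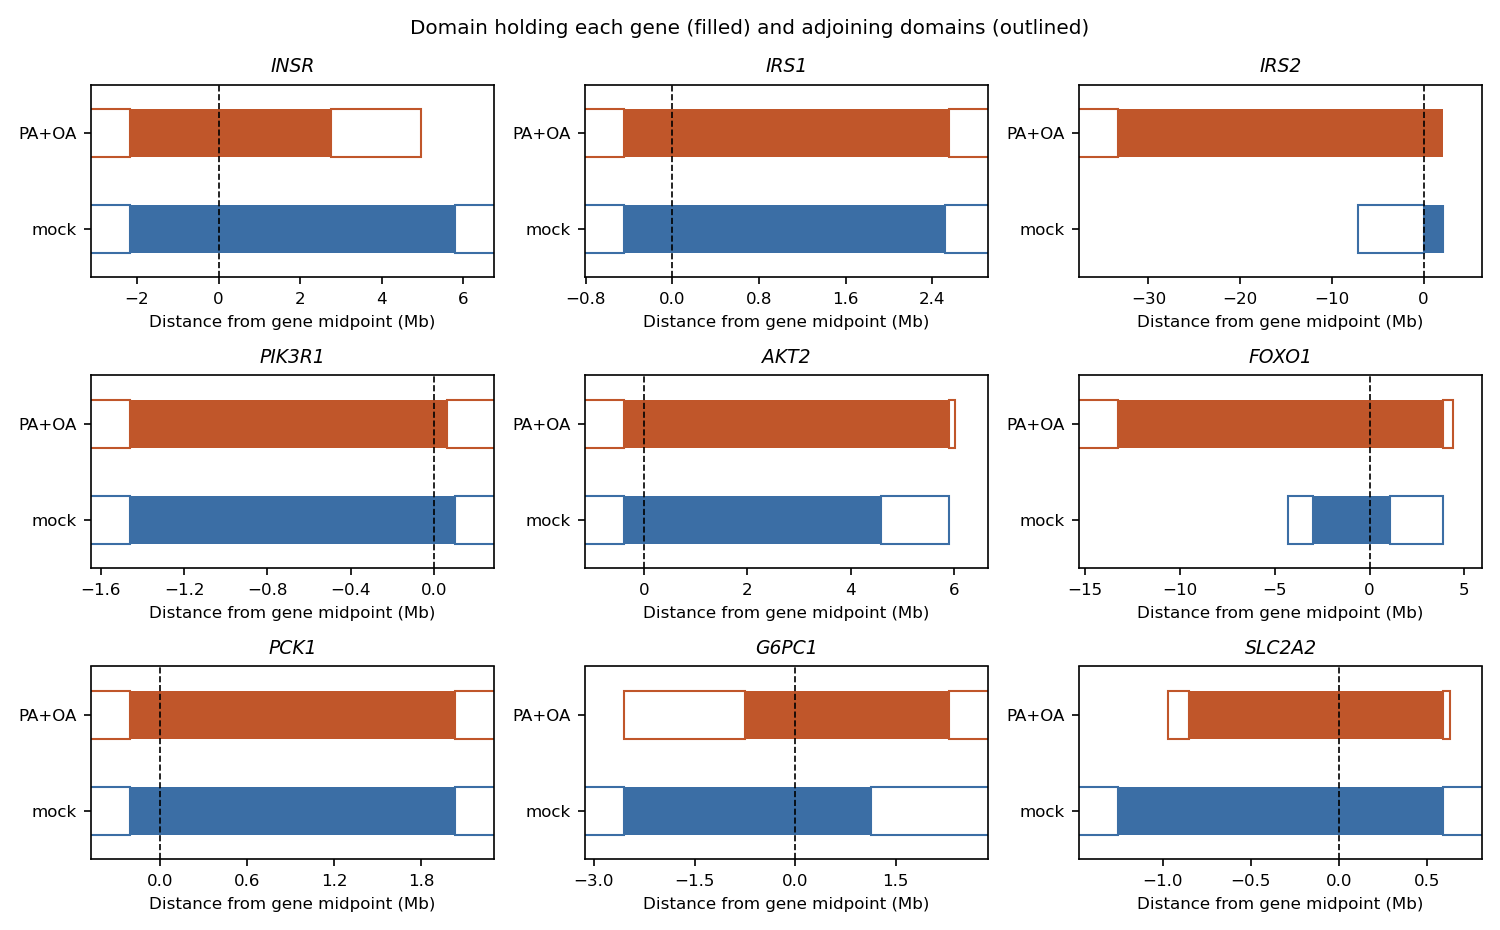
The domain holding each of the 9 genes (filled bars) and the domains next to it (outlined) in the PA+OA list (upper bar) and the mock list (lower bar), with distance from the gene midpoint in Mb on each horizontal axis. The bars of IRS1, PIK3R1 and PCK1 match to within 40 kb, the PA+OA bars of IRS2 and FOXO1 reach far below the mock bars, and the bars of G6PC1 overlap only in part.

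**Figure D2:**
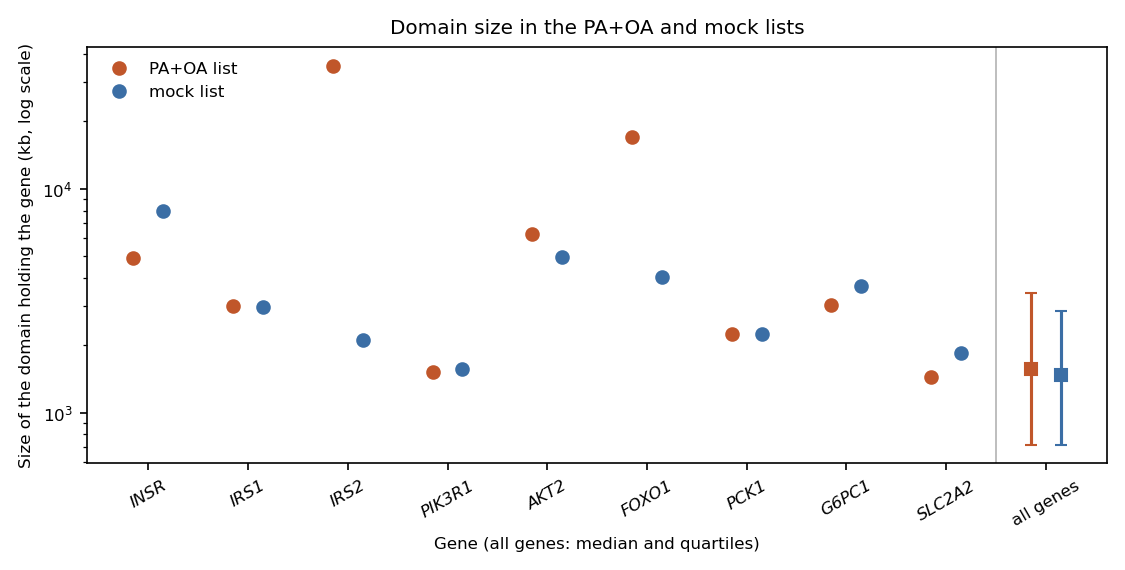
Size of the domain holding each gene in kb (log scale) in the PA+OA list (left point of each pair) and the mock list (right point), with the median and quartiles over all placed protein-coding genes at the right. IRS2, at 35400 and 2120 kb, and FOXO1, at 17120 and 4040 kb, are the widest pairs.

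INSR, the gene of the insulin receptor, spans 7112265 to 7294414 on chromosome 19 (182 kb, minus strand). Its domain ran from 5040001 to 9960000 in the PA+OA list and from 5040001 to 13000000 in the mock list, or 4920 against 7960 kb. The lower edge was in the same bin in both lists and the upper edge lay 3040 kb lower in the PA+OA list. The nearest boundary, at 5040000, was 2160 kb from the gene midpoint in both lists, farther than for most genes (91.2% of all genes had a boundary at least that near in the PA+OA list and 94.7% in the mock list). Inside the mock domain the PA+OA list had boundaries at 9960000, within COL5A3, and at 12160000, nearest to ZNF625. They stood 2760 and 4960 kb above INSR, so neither was close to the receptor gene.

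The lists differed in the distant genes placed with INSR and not in its near neighbours. INSR had 121 protein-coding neighbours in its PA+OA domain and 229 in its mock domain, and all 121 were among the 229. The nearest on either side were ZNF557 and ARHGEF18 in both lists, with midpoints 125 kb below and 211 kb above INSR. The neighbours include genes with roles in metabolism, which were picked out after their positions were seen. RETN, the gene of resistin, at 466 kb from INSR, and ANGPTL4, which encodes an inhibitor of lipoprotein lipase, at 1170 kb, shared its domain in both lists. ANGPTL8, an insulin-responsive gene of liver and fat, at 4040 kb, shared it in the mock list only.

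IRS1 spans 226731312 to 226799820 on chromosome 2 (68.5 kb, minus strand). Its domain ran from 226320001 to 229320000 in the PA+OA list and from 226320001 to 229280000 in the mock list, or 3000 against 2960 kb. The upper edge differed by 1 bin and the lower edge by none. The nearest boundary was the lower edge, 446 kb from the midpoint in both lists. The 19 neighbours were the same genes, with RHBDD1 nearest at 134 kb and no protein-coding gene between IRS1 and the lower edge by midpoint. They included COL4A4 and COL4A3, genes of type IV collagen chains, at 300 and 474 kb, and PID1, which encodes a phosphotyrosine-binding protein, at 2380 kb. The domain below IRS1 was less alike, with 1960 kb in the PA+OA list and 1520 kb in the mock list.

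IRS2, the gene of the other main adaptor of the liver, was the member with the largest difference in domain size. It spans 109752695 to 109786583 on chromosome 13 (33.9 kb, minus strand). In the PA+OA list it lay in a domain from 76480001 to 111880000, and in the mock list in one from 109760001 to 111880000. These measured 35400 and 2120 kb, a ratio of 16.7, and shared the upper edge. Placed by the lower end of its record in place of the midpoint, IRS2 fell in the adjoining mock domain from 102560001 to 109760000, of 7200 kb, with a ratio of 4.92 and no shared edge. Only 0.432% of placed genes lay in a PA+OA domain of at least 35400 kb, and these include the 85 genes of this domain itself. The share therefore depends on its gene density, 2.40 per Mb, and is no separate measure of how rare such a domain is. The PA+OA domain is the longest of its list on that chromosome.

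The lower edge of the mock domain, at 109760000, fell inside the IRS2 record. It lay 9.64 kb from the midpoint, 26.6 kb from the upper end of the record, where transcription begins on this strand, and 7.30 kb from the lower end. IRS2 is shorter than 1 bin, so the mock list does not resolve whether the boundary lies inside the gene or beside it. The PA+OA list had no boundary within 2 Mb, and its nearest one, at 111880000, was 2110 kb from the midpoint. A boundary of either list lay inside the record of 1 of the 9 genes, beside 7.29% of all genes. A boundary found in the mock list alone lay inside 1.47% of all genes, a narrower class that was not among the planned counts. With records widened by 1 bin on either side, a boundary of either list lay inside for 2 of 9, IRS2 and PIK3R1, beside 21.1% of all genes. IRS2 was also the only member whose midpoint had a boundary of a single list at most 50 kb away, beside 5.80% of all genes.

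The IRS2 promoter is shown because its 300 bases lie 26.5 kb from that mock boundary, while the nearest PA+OA boundary is 2090 kb away. The sequence is from RefSeq (GRCh38.p14, chr13:109786534-109786833, minus strand), covers 250 bases before to 50 after the start, and has a GC content of 75.7%. Capitals mark the only match, on either strand, to any of 3 motifs searched: TGTTTAC, a forkhead motif, TGTTTTG, the core of an insulin response element, and a core like that of the insulator protein CTCF, which is CCA, NN, AGG, N and GGC in a row.
IRS2: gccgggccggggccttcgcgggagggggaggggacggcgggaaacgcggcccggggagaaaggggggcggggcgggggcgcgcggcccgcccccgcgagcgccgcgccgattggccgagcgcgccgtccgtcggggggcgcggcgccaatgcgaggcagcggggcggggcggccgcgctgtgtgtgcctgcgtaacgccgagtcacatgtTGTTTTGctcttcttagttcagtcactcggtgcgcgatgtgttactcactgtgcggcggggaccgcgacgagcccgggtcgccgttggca
The match was to TGTTTTG. Of 35116 promoter windows in the table, 4.92% held this motif, 3.42% the forkhead motif and 1.05% the CTCF-like core. A match in this window is a description of its letters and not evidence of binding.

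The set of genes listed with IRS2 followed from that lower edge. IRS2 had 84 neighbours in the PA+OA domain and 11 in the mock domain, and all 11 were among the 84. Placed by the lower end of its record, it had 19 mock neighbours, none of them among those 11. By the midpoint, the mock neighbours were LOC124903211, COL4A1, COL4A2, RAB20, NAXD, CARS2, ING1, ANKRD10, ARHGEF7, TEX29 and LOC107983958, all above IRS2. COL4A1 and COL4A2 encode type IV collagen chains and had midpoints 458 and 641 kb away. By their midpoints, IRS1 and IRS2 each shared a domain with a pair of type IV collagen genes in both lists, which for IRS2 in the mock list depends on the placement. In the PA+OA list the nearest neighbour below IRS2 was MYO16, at 918 kb, which the mock list put in the adjoining domain of 7200 kb. Others found with IRS2 in the PA+OA list only, chosen after their positions were seen, were SLC10A2, the gene of the ileal bile acid transporter, and PCCA, a mitochondrial carboxylase gene.

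FOXO1 lies on the same chromosome, 69.2 Mb from IRS2, and spans 40555667 to 40666641 (111 kb, minus strand). It lay in a PA+OA domain from 27360001 to 44480000 and in a mock domain from 37640001 to 41680000. The sizes were 17120 and 4040 kb, a ratio of 4.24. Neither edge was shared between these domains, although both PA+OA edges were also boundaries of the mock list. The nearest boundary was 3870 kb from FOXO1 in the PA+OA list, at 44480000, and 1070 kb in the mock list, at 41680000, within VWA8. FOXO1 was thus far from a boundary in both lists: 95.6% of all genes had a PA+OA boundary at least that near, and 86.4% a mock boundary.

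FOXO1 had 83 neighbours in the PA+OA domain and 19 in the mock domain, all 19 of which were among the 83. The nearest, LOC124903162 at 463 kb below and MRPS31 at 139 kb above, were the same in both. Inside the PA+OA domain the mock list had boundaries at 31880000, nearest to RXFP2, at 36320000, within SPART, at 37640000, within TRPC4, and at 41680000. Genes that shared a domain with FOXO1 in the PA+OA list only, chosen after their positions were seen, included PDX1, a transcription factor gene of the insulin-producing beta cell, and KL, the klotho gene. They lay 12700 and 7570 kb below FOXO1.

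The values of IRS2 and FOXO1 were not separate from those of their chromosome. Chromosome 13 had 5 domains in the PA+OA list and 19 in the mock list. All 6 PA+OA boundaries there, the start of the chromosome included, were mock boundaries in the same bin, and 12 of 18 mock boundaries were absent from the PA+OA list. Between FOXO1 and IRS2 there were 3 boundaries in the PA+OA list and 8 in the mock list. The last edge was 111880000 in the PA+OA list and 113640000 in the mock list, so that the PA+OA domain of IRS2 was also the last of its chromosome. The part of depth or of the calling of domains in this was not tested. A PA+OA domain at least 1.5 times as long as the mock domain was found for 2 of the 9 genes, which are these, beside 22.0% of genes in both lists.

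**Figure D3:**
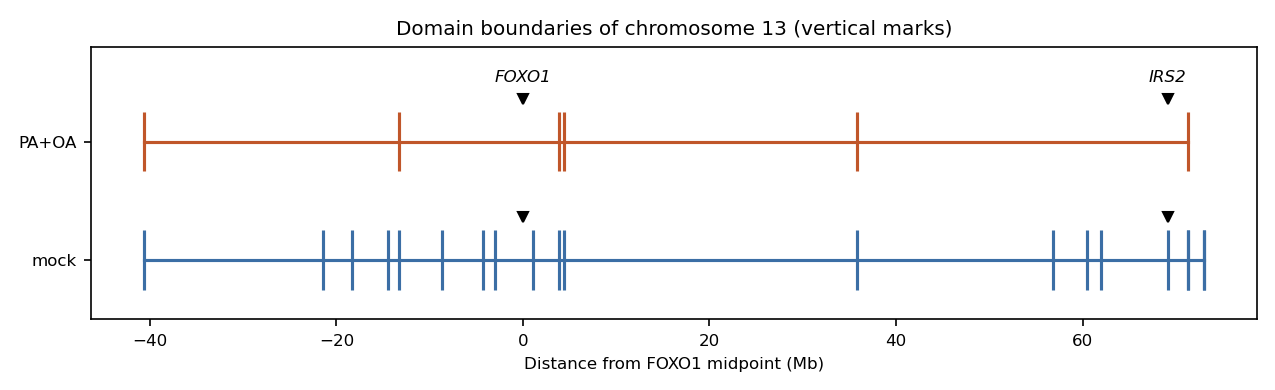
Boundaries of chromosome 13 (vertical marks) in the PA+OA list (upper line) and the mock list (lower line), by distance from the FOXO1 midpoint in Mb; triangles mark FOXO1 and IRS2. Each of the 6 PA+OA marks has a mock mark at the same place, and a mock mark without a PA+OA partner sits at IRS2.

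PIK3R1 encodes the regulatory subunits of phosphatidylinositol 3-kinase. It spans 68215756 to 68301821 on chromosome 5 (86.1 kb, plus strand). Its domain ran from 66800001 to 68320000 in the PA+OA list and from 66800001 to 68360000 in the mock list, or 1520 against 1560 kb. The lower edges coincided and the upper edges differed by 1 bin. PIK3R1 lay close to that upper edge, at 61.2 kb from its midpoint in the PA+OA list and 101 kb in the mock list. Its only protein-coding neighbours in either list were MAST4, a kinase gene, and CD180, a Toll-like receptor relative, at 1380 and 1070 kb. No other member shared its domain with so few genes.

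The promoter table gives 4 start windows for PIK3R1, and 3 of them lie within 1 bin of the PA+OA boundary at 68320000. The nearest, 27.4 kb from that boundary and 67.4 kb from the mock boundary, is shown as the start window of PIK3R1 closest to a listed edge (GRCh38.p14, chr5:68292327-68292626, plus strand). The edges of the lists differ here by 1 bin, which counts as the same boundary. The window holds none of the 3 motifs, so no base is in capitals.
PIK3R1: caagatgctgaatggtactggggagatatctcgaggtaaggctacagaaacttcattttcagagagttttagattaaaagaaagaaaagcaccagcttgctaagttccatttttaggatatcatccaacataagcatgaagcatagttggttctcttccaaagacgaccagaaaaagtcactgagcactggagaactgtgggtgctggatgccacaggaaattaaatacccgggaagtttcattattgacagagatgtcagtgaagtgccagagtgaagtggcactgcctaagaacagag
Its GC content of 42.3% is well below the 75.7% of the IRS2 window. The most upstream window of PIK3R1, with 80.0% GC, lay 104 kb from the PA+OA boundary and 144 kb from the mock one.

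AKT2, the AKT kinase gene most tied to insulin action on glucose, spans 40230317 to 40285345 on chromosome 19 (55.0 kb, minus strand). Its domain ran from 39880001 to 46160000 in the PA+OA list and from 39880001 to 44840000 in the mock list, or 6280 against 4960 kb. The nearest boundary was the shared lower edge, 378 kb from AKT2, so that the difference was at the far end, 4580 kb away. AKT2 had 181 neighbours in the PA+OA domain and 131 in the mock domain, all of which were among the 181. The nearest on either side were CCNP, at 33.4 kb, and C19orf47, at 62.9 kb, in both lists.

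GSK3A, which encodes a kinase that AKT phosphorylates in the control of glycogen synthesis, shared the domain of AKT2 in both lists, 1980 kb away. GIPR, a receptor gene of the incretin system, and FOXA3, a liver forkhead gene, were with AKT2 in the PA+OA list only, at 5420 and 5610 kb, and were picked out after their positions were seen. INSR and AKT2 are 33.1 Mb apart and never shared a domain. Between them the PA+OA list had 10 boundaries and the mock list 5. Chromosome 19 had 24 domains in the PA+OA list and 19 in the mock list, the opposite order to chromosome 13, and long domains in both, up to 8960 and 15840 kb.

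PCK1 encodes cytosolic phosphoenolpyruvate carboxykinase, which commits carbon to glucose production. It spans 57561110 to 57568121 on chromosome 20 (7.01 kb). The domain ran from 57360001 to 59600000 in both lists and measured 2240 kb. The adjoining domains, of 280 kb below and 1160 kb above, were also equal in both. The nearest boundary, at 57360000, was 205 kb from PCK1. All 21 neighbours were the same genes, with CTCFL, a testis relative of CTCF, at 53.8 kb and ZBP1 at 47.5 kb as the nearest. GNAS, which encodes the G protein subunit that passes the glucagon signal to adenylyl cyclase, lay 1310 kb away in the same domain. The nearest boundary found in 1 list only was 5520 kb from PCK1 for the PA+OA list and 3720 kb for the mock list, farther than the 748 and 1130 kb of G6PC1 and the 852 and 908 kb of SLC2A2. For AKT2, whose domain differed between the lists, these distances were larger still, at 5660 and 4580 kb.

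G6PC1 encodes the catalytic subunit of glucose-6-phosphatase, the last step of glucose release. It spans 42900799 to 42914438 on chromosome 17 (13.6 kb, plus strand). The domain ran from 42160001 to 45200000 in the PA+OA list and from 40360001 to 44040000 in the mock list, or 3040 against 3680 kb. Here the size hid the difference, since the PA+OA domain began 1800 kb and ended 1160 kb higher, and the shared 1880 kb made up 61.8% of the PA+OA domain and 51.1% of the mock domain. The nearest boundary was at 42160000, within KCNH4, 748 kb below G6PC1, in the PA+OA list, and at 44040000, within LSM12, 1130 kb above it, in the mock list. Both were found in that list only.

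G6PC1 had 89 neighbours in the PA+OA domain and 143 in the mock domain, of which 55 were shared. That is 61.8% of the PA+OA neighbours and 38.5% of the mock neighbours. The nearest, AOC3 at 53.0 kb below and AARSD1 at 49.9 kb above, were the same. G6PC3, a broadly expressed relative that encodes another glucose-6-phosphatase catalytic subunit, lies 1170 kb above G6PC1, at 44070673 to 44076344. It shared the domain of G6PC1 in the PA+OA list and by its midpoint lay beyond the mock edge. The midpoint of G6PC3 was 33.5 kb from that mock edge, less than the bin of 40 kb. The mock list therefore does not settle on which side of the edge G6PC3 lies. In the mock list G6PC1 shared its domain with 62 keratin and keratin-associated genes, and in the PA+OA list with 0. ACLY, the gene of ATP-citrate lyase, which supplies acetyl-CoA for lipid synthesis, was likewise with G6PC1 in the mock list only, at 1010 kb. STAT3 and STAT5B, at 557 and 664 kb, were with it in both. These genes were picked out after their positions were seen. Chromosome 17 as a whole was alike in number, with 85 domains in the PA+OA list and 86 in the mock list.

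SLC2A2 spans 170996347 to 171026720 on chromosome 3 (30.4 kb, minus strand). Its domain ran from 170160001 to 171600000 in the PA+OA list and from 169760001 to 171600000 in the mock list, or 1440 against 1840 kb. The upper edge, 588 kb from the midpoint, was shared and was the nearest boundary in both lists. The lower edge was 400 kb higher in the PA+OA list, which had boundaries at 170040000, within GPR160, and at 170160000, within PHC3, inside the mock domain. All 7 PA+OA neighbours were among the 16 mock neighbours: PRKCI, SKIL, CLDN11, SLC7A14, RPL22L1, EIF5A2 and TNIK. PRKCI encodes an atypical protein kinase C and TNIK, at 248 kb, is the nearest above. The mock list added ACTRT3, MYNN, LRRC34, LRRIQ4, LRRC31, SAMD7, SEC62, GPR160 and PHC3. Chromosome 3 had 231 domains in the PA+OA list and 168 in the mock list, and 84 PA+OA boundaries there were absent from the mock list, against 25 the other way.

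**Figure D4:**
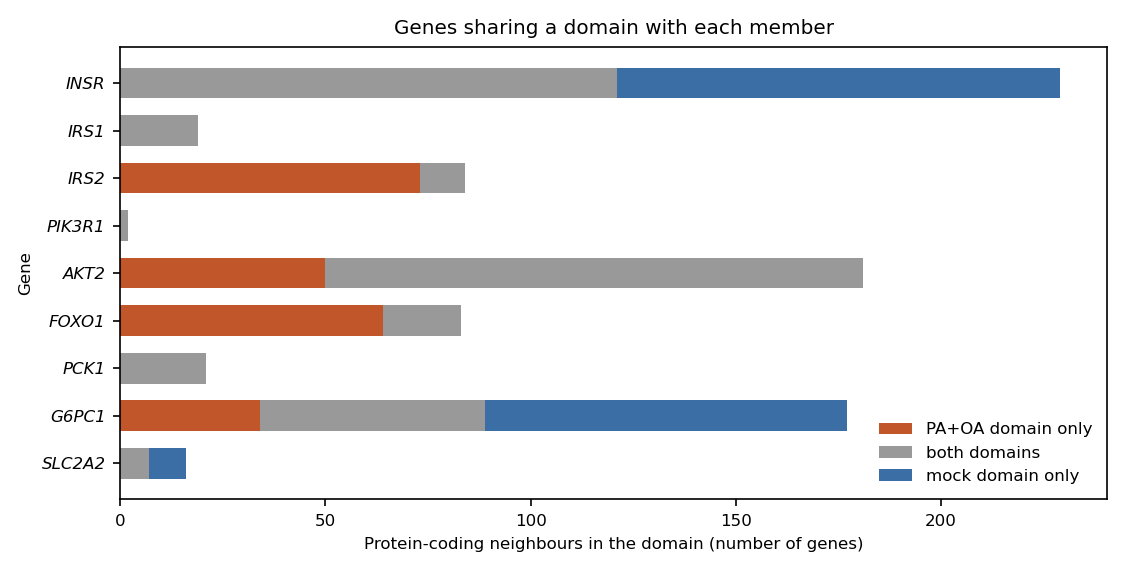
Number of protein-coding genes sharing a domain with each member, split into those found in the PA+OA domain only, in both domains and in the mock domain only. IRS1, PIK3R1 and PCK1 have shared neighbours alone, and G6PC1 is the only gene with all 3 kinds.

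Neighbours follow from the edges and are no separate result. For 3 of 9 genes the set of neighbours was identical in the lists, with 19, 2 and 21 genes, beside 40.5% of the genes placed in both lists. The PA+OA domain ran over mock boundaries, with none added, for 3 genes, beside 29.2% of those genes. The mock domain was divided by PA+OA boundaries, with none lost, for 2 genes, beside 23.1%, and both held for 1 gene, beside 6.45%. Some members lay toward an end of their domain, and how common this is over all genes was not computed. AKT2 was 6.02% of the way up its domain in the PA+OA list and 7.62% in the mock list, PCK1 9.13% in both, IRS1 14.9 and 15.1%, and PIK3R1 96.0 and 93.5%. In kb, a boundary at least as near as that of AKT2 was found for 55.1% of all genes in the PA+OA list and 57.3% in the mock list. These shares were 59.8 and 62.3% for IRS1, 38.9 and 40.2% for PCK1, and 15.7 and 24.1% for PIK3R1. IRS2 was 94.0% of the way up its PA+OA domain and 0.455% up its mock domain by the midpoint, but 99.9% up its mock domain by the lower end of the record, so its end of the mock domain is not settled.

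The domains differed widely in gene content. AKT2 lay in the PA+OA list among 29.0 genes per Mb, G6PC1 among 29.6 and INSR among 24.8, against 26.6, 39.1 and 28.9 in the mock list. IRS2 and PIK3R1 lay in the sparsest PA+OA domains, with 2.40 and 1.97 genes per Mb, against 5.66 and 1.92 in the mock list. FOXO1, at 4.91 and 4.95 genes per Mb, had an even density although its domain differed in size.

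Wider lists placed the 9 genes within their pathway. Of 44 genes of insulin signalling, 17 (38.6%, interval 25.7 to 53.4%) had a mock domain with both edges matched within 1 bin and no further boundary inside, and of 35 genes of glucose output 20 did (57.1%, 40.9 to 72.0%), beside 40.5% of all protein-coding genes. Edges in identical bins were found for 13 of 44 (29.5%) and 16 of 35 genes (45.7%), beside 33.3% of all. Of the 43 insulin signalling genes in both lists, 18 had a longer and 12 a shorter PA+OA domain, beside 36.2% and 29.3% of all genes. For glucose output 7 had a longer and 12 a shorter one. The median difference in domain size was 0 kb for either set of genes, as over all genes.

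**Figure D5:**
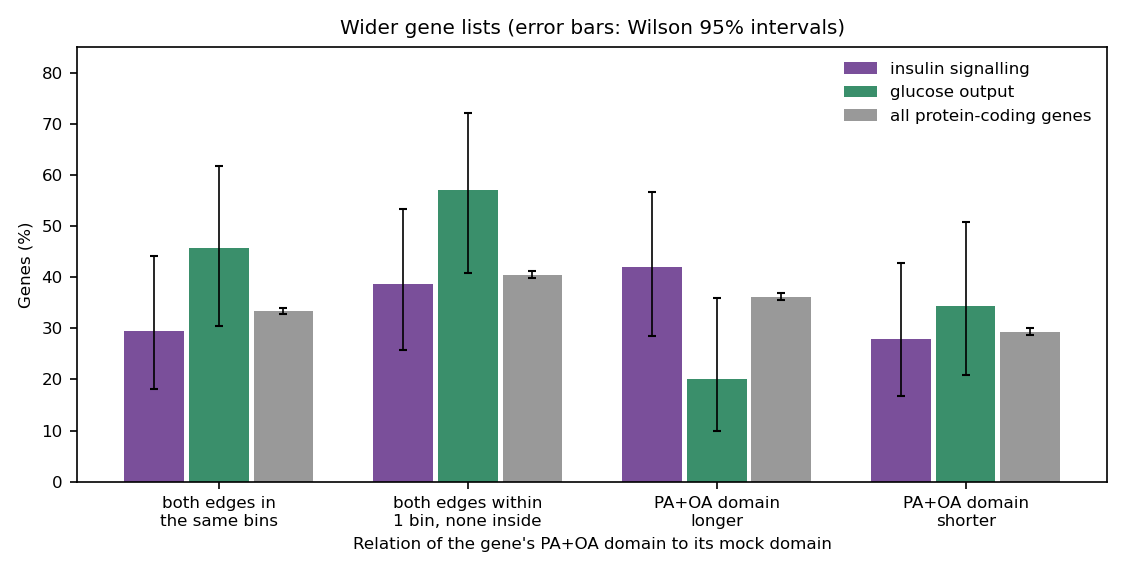
Percent of genes in each relation between PA+OA and mock domains, for the insulin signalling list, the glucose output list and all protein-coding genes; error bars are Wilson 95% intervals, which cover counting error only. The insulin signalling intervals hold the values of all genes in each class, and those of the glucose output list miss them narrowly for edges within 1 bin (40.9 against 40.5%) and for longer PA+OA domains (35.9 against 36.2%). The intervals count genes that share a domain, such as FBP1 and FBP2, as separate, so these narrow misses are not read as a difference.

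Among insulin signalling genes, IRS2 and FOXO1 had the largest differences in domain size, at 33280 and 13080 kb. Next came FOXO4, a forkhead relative on chromosome X, with 5680 kb in the PA+OA list and 320 kb in the mock list, and IGF1R, the gene of the IGF1 receptor and a close relative of INSR, with 6480 and 1440 kb. The forkhead relatives FOXO3 and FOXO6 lay in equal domains of 560 and 440 kb in both lists. The adaptor gene IRS4 lay in an equal domain of 1200 kb in both lists. RICTOR, which encodes a subunit of the complex that phosphorylates AKT, lay in an equal domain of 2720 kb. Chosen after their values were seen, TBC1D4 and AKT1 stood apart. TBC1D4, an AKT substrate gene on chromosome 13, lay in 31480 kb in both lists, unlike FOXO1 and IRS2 on the same chromosome. AKT1, on chromosome 14, lay beyond the end of the PA+OA list and in a mock domain of 1800 kb.

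Among glucose output genes, GPI, the gene of glucose-6-phosphate isomerase, had the largest difference, with 840 kb in the PA+OA list and 15840 kb in the mock list. PFKFB1, the liver enzyme gene that sets the level of fructose-2,6-bisphosphate, had 9840 and 3880 kb. GBE1, the glycogen branching enzyme gene, had 6160 and 1200 kb, and PGM1, which encodes a phosphoglucomutase, 1440 and 4960 kb. Genes in equal domains near a boundary were SLC37A4, which encodes the transporter that feeds glucose-6-phosphatase (440 kb, 12.5 kb from a boundary), and MLXIPL, the gene of the glucose-sensing factor ChREBP (280 kb, 20.6 kb). The glucocorticoid receptor gene NR3C1 (1400 kb, 43.3 kb) and the liver glycogen synthase gene GYS2 (520 kb, 48.7 kb) were likewise equal in both lists. These distances are from gene midpoints, and for MLXIPL and NR3C1 a boundary of both lists lay inside the gene record.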

How the data were processed

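The authors deposited 1 domain list per library, which holds the positions of domain edges alone. HiC-Pro and FastQC were run on build hg38, per the submitters' processing notes. Which program called the domains, how matrices were normalized and how deep the libraries were is not given in the sources used here, and these choices can alter the number and length of domains.

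Gene records came from the RefSeq table of GRCh38.p14, the same build as hg38, and all list symbols matched. A gene lay in the domain that held its midpoint. A boundary was any edge, with edges of 1 list within 1 bin of 40 kb joined, and was found in both lists where the other had one within 1 bin. Neighbours were protein-coding genes with midpoints in the domain. Lists were compared with Python 3.11.15, pandas 2.3.3 and scipy 1.17.1, and the rules were tested on a made-up chromosome. Intervals are Wilson 95% intervals, which treat genes as independent although some genes of the wider lists share a domain. Alternatives were placement by either end of the record, tolerances of 0, 2 and 3 bins, edges not joined, windows of 25 and 100 kb, widened records and neighbours by overlap. Promoter windows matched 8 of the 9 members.

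The members and lists were chosen with earlier results of these data known. Named were all members, their nearest neighbours, all neighbours where a domain held at most 12 genes in either list, the boundaries inside their domains, and in each wider list up to 4 genes with the largest difference in domain size and up to 4 with equal edges nearest to a boundary. Other names were chosen after their positions were seen. A gene that the rule covers is not reported here.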

Additional observations from a re-analysis of the deposited data

How the results depend on the processing

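Of 31 alternatives for the counts, 29 left the count within 1.5 times the value given. With a tolerance of 0 bins, the number of members with a matched domain was 1 in place of 3, since the edges of IRS1 and PIK3R1 differ by 1 bin. The share of all genes at 0 bins was not computed. Both edges were in identical bins for 33.3% of all genes, beside 40.5% with a domain matched within 1 bin. With records widened by 1 bin on either side, 2 members in place of 1 held a boundary, the added one being PIK3R1, beside 21.1% in place of 7.29% of all genes. Placed by the lower end of its record, IRS2 fell in the adjoining mock domain of 7200 kb in place of 2120 kb, because the boundary lies inside the record. Of 54 alternatives for the domain sizes and gene numbers of single members, this was the 1 that moved a value beyond 1.5 times the value given. Counting genes by overlap changed some gene numbers by less, as for INSR in the PA+OA list, from 122 to 123. No paired analysis was possible because each group has 1 library. The lists give no depth, so the precision of a single edge is unknown beyond the bin of 40 kb.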
